A study of Mus musculus with 4 samples.

Results

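The genes described here encode the receptors that bind glutamate, the transporters that load glutamate into synaptic vesicles, and a few of their synaptic partners. They were chosen by name: 30 genes, each found through the gene name that the array files give to a probe, out of 30222 gene names on the array. They comprised 4 AMPA receptor subunits, 7 NMDA receptor subunits, 5 kainate receptor subunits, 1 delta receptor subunit, 7 metabotropic receptors (1 of group I, 2 of group II and 4 of group III), 3 vesicular glutamate transporters, 2 postsynaptic scaffolds and 1 neuronal uptake transporter. The 30 genes had 48 of the 39429 probes. Each gene was read from the probe with the highest mean level, and 14 genes had further probes with which it was compared.

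Slices of the lumbar spinal cord at L4 to L5 gave the RNA. The mice were males of the outbred ICR stock, aged 5 to 6 weeks in the study's methods. All mice had partial sciatic nerve ligation (PSL), in which part of the sciatic nerve of the right leg is tied off to produce neuropathic pain, and the RNA was taken on day 7 after it. Sham+PSL mice had had the adrenals exposed and left in place, and ADX+PSL mice had had both adrenals removed, which takes away corticosterone together with the other adrenal hormones. Each operation was sampled at ZT10, late in the light phase, and at ZT22, late in the dark phase, where ZT is the time in hours after the lights come on. In the study's methods the ADX mice were given saline to drink. The comparisons therefore ask how spinal mRNA differs between 2 times of day and between the 2 operations. There was 1 array for each of the 4 conditions and no array of mice without ligation. The number of mice behind each RNA and the side of the cord are not given in the sources used here. No comparison had a replicate array, so that no difference between 2 arrays can be set against the spread between mice.

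Glutamate is the main excitatory transmitter of the spinal cord, released by primary afferents and by excitatory interneurons. AMPA and kainate receptors are ion channels that carry fast excitation. NMDA receptors are ion channels that admit calcium, open only when glutamate, a co-agonist and depolarisation coincide, and are known for their part in the sensitisation of dorsal horn neurons after injury. Metabotropic receptors act through G proteins: those of group I excite, and those of groups II and III mostly sit on terminals and reduce release. VGLUT1, VGLUT2 and VGLUT3, the products of Slc17a7, Slc17a6 and Slc17a8, fill vesicles with glutamate. In the cord, VGLUT2 belongs to local excitatory neurons, whereas VGLUT1 belongs mainly to myelinated afferents, whose cell bodies lie in the dorsal root ganglia outside the cord.

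The arrays report a gene through short probes, and in the results below the probes of 1 gene did not always agree. The part that the stretch of transcript read had in this was not tested. The first 30 of the 60 bases are shown for the genes with the largest ratios and for the vesicular transporters. They are as the array design gives them, in lower case throughout.
Gria1, chr11:57143613-57143672 (mm9, plus strand): catttgatcagacactaaatatttggggta
Grin2c, chr11:115110483-115110542 (mm9, minus strand): attggttggaatttcttttcataggaacat
Grin2d, chr7:53087859-53087918 (mm9, minus strand): tcttggagcccaccgactcttttttaaacc
Slc17a6, chr7:58926067-58926126 (mm9, plus strand): taagtgcaaagcataaaacctcctgtgtgt
Slc17a7, chr7:52430841-52430900 (mm9, plus strand): ttcaaggctcgcctaaccaattctacattt
Slc17a8 brightest probe, chr10:89046159-89046218 (mm9, minus strand): ttggattttcccataccaaaggagtggcta
Slc17a8 other probe, chr10:89037630-89037689 (mm9, minus strand): ctttcttggaaagtatggtcagatgatata
The coordinates span the whole probe and are those of the deposited probe annotation. An annotation of exons and untranslated regions in that build was not used here. The longest run of bases that probes of different genes among the 48 had in common was 10 of 60, so no pair of them read the same stretch. Through its accession, 46 of the 48 probes matched the RefSeq symbol of the gene it is named for, with at least 1 probe for each of the 30 genes.

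Levels are normalized intensities of the authors' table in arbitrary units. They can be compared between arrays for 1 probe, but not between probes. Of the 30 genes, 28 were well above background on all 4 arrays and 2 on none. Between 65.1% (ADX+PSL ZT22) and 70.1% (ADX+PSL ZT10) of all probes were well above background, and no spot was saturated. Outlier spots ranged from 156 on the ADX+PSL ZT10 array to 254 on the ADX+PSL ZT22 array. The lowest detected level ranged from 12.8 to 22.2 on the same 2 arrays. The error quoted for a log2 ratio is that of the spots, from the image software's error model. It came to about 0.20 for a gene with 1 spot and covers the measurement on the array alone.

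The arrays also differed in tissue other than neurons. The summed level of 5 red blood cell genes was 128729 on the sham+PSL ZT10 array, 17931 on the sham+PSL ZT22 array, 90028 on the ADX+PSL ZT10 array and 81049 on the ADX+PSL ZT22 array. Fast skeletal muscle genes summed to 1513 on the sham+PSL ZT10 array and to between 109 and 111 on the others. The 8 meningeal fibroblast genes summed to 15884 and 14460 on the sham+PSL arrays and to 4922 and 5428 on the ADX+PSL arrays at ZT10 and ZT22, and all 8 were lower after ADX at either time. Neuronal RNA was present, since all 11 of the neuronal markers on the array were well above background, but these markers do not tell cord levels apart. Their summed level ranged from 411206 (ADX+PSL ZT22) to 479640 (sham+PSL ZT10), with median log2 ratios between -0.12 and 0.15 in the 4 comparisons. Of 4 sensory ganglion genes, Scn10a, Avil and Mrgprd were not well above background on any array, while Prph, a neurofilament gene that motor neurons also express, read 9259 and 9886 on the sham+PSL arrays and 6393 and 7327 on the ADX+PSL arrays at ZT10 and ZT22. The part of these tissue differences in the ratios below was not tested, and fewer cells of a type and less RNA per cell cannot be told apart in whole slices.

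**Figure D1:**
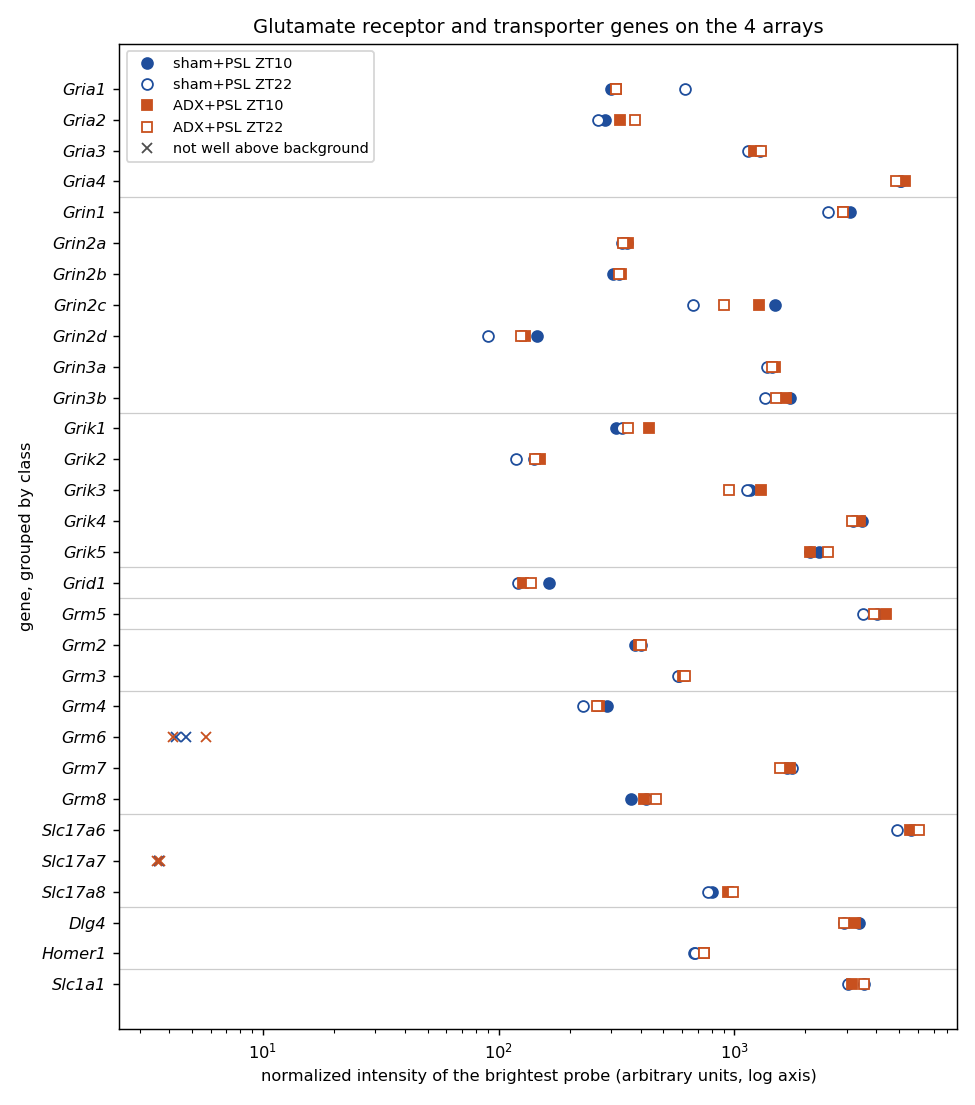
Normalized intensity (horizontal log axis, arbitrary units) of the brightest probe of each of the 30 genes on the 4 arrays, 1 point per array. Circles are sham+PSL arrays and squares ADX+PSL arrays, filled at ZT10 and open at ZT22, crosses are values not well above background, and grey lines separate the classes. The arrays of Gria1, Grin2c and Grin2d differ by a factor over 1.5. Gria1 and Grin2d have a sham+PSL ZT22 point apart from the rest, and Grin2c has both ZT10 points above both ZT22 points. Positions of different genes on the axis cannot be compared, since probes differ in brightness.

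Over the 4 conditions these transcripts varied about as much as the array as a whole. The highest array exceeded the lowest by a median factor of 1.25 over the 28 measured genes, and 13 of the 28 lay under 1.2. Over all 19061 genes well above background on every array the median factor was 1.23, and 43.2% lay under 1.2. Only 3 of the 28 genes had a factor over 1.5, namely Grin2c (2.23), Gria1 (2.05) and Grin2d (1.62), against 16.2% of all genes. The least variable receptor was Grm2, the group II metabotropic receptor mGluR2, with 379.8 (sham+PSL ZT10), 400.3 (sham+PSL ZT22), 392 (ADX+PSL ZT10) and 399.6 (ADX+PSL ZT22), a factor of 1.05.

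In the methods of the study a gene counts as changed at a Z-score of at least 2 with a ratio of at least 2, or at a Z-score of -2 or less with a ratio of 0.5 or less. The Z-score, taken here over all probes, places a log2 ratio among those of the whole array pair. None of the 28 genes passed these limits in any of the 4 comparisons. For ZT10 over ZT22 the background was 2.25% of genes higher and 2.2% lower in sham+PSL, and 2.11% higher and 1.69% lower in ADX+PSL. It was 2.16% higher and 2.49% lower in ADX+PSL than in sham+PSL at ZT10, and 1.61% higher and 2.23% lower at ZT22. At such rates fewer than 1 of 28 genes would be counted in each direction, so a count of 0 does not set these genes apart. These shares are over genes detected on whichever array of a comparison was brighter, whereas the 28 were detected on all 4. With no replicate arrays no p-value belongs to these counts. At a ratio of 2 without a Z-score, 1 gene was higher (Grin2c, background 2.77%) and 1 lower (Gria1, background 2.69%) at ZT10 in sham+PSL. In the other 3 comparisons none was, with backgrounds of 2.47% higher and 1.94% lower for time in ADX+PSL, 2.67% and 3.06% for operation at ZT10, and 2.1% and 2.91% for operation at ZT22.

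The largest difference was that of Grin2c, which encodes the NMDA receptor subunit GluN2C. Its level was 1493 on the sham+PSL ZT10 array, 669.5 on the sham+PSL ZT22 array, 1269.9 on the ADX+PSL ZT10 array and 899.8 on the ADX+PSL ZT22 array. Both ZT10 arrays were above both ZT22 arrays, and the sham+PSL arrays were the outer pair. The ZT10 over ZT22 log2 ratio was 1.16 ± 0.20 (spot error) in sham+PSL against 0.50 ± 0.20 in ADX+PSL. The Z-score of the former was 1.94, just short of the limit of 2, which in this comparison corresponds to a ratio of 2.29. The limma fit of operation and time point gave Grin2c an unadjusted time p-value of 0.038 and a Benjamini-Hochberg adjusted p-value of 0.93 over 28845 probes, on 1 residual degree of freedom. Only 1 probe, with 1 spot, represents Grin2c. It passed the limits after normexp background correction, on the mean signal left uncorrected, and where the Z-score was taken within 20 bins of intensity.

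Gria1 differed in the other direction. It encodes GluA1, an AMPA receptor subunit known for its activity-dependent insertion into synapses. The level was 301 (sham+PSL ZT10), 618 (sham+PSL ZT22), 315 (ADX+PSL ZT10) and 316 (ADX+PSL ZT22). A single array, sham+PSL at ZT22, was high, and the other 3 lay between 301 and 316. The log2 ratio of ZT10 over ZT22 was therefore -1.04 ± 0.20 in sham+PSL against -0.004 ± 0.21 in ADX+PSL, and that of ADX+PSL over sham+PSL was 0.07 ± 0.21 at ZT10 and -0.97 ± 0.21 at ZT22. Both large ratios share the sham+PSL ZT22 array, on which Gria1 has a single spot and no second probe. The Z-scores were -1.74 for the time ratio and -1.59 for the operation ratio, and with the Z-score within bins of intensity Gria1 passed the limits for time. The fit gave adjusted p-values of 0.87 for operation and 0.93 for time point by limma. Its only residual is the difference between the time ratios of the operations, -1.03 for Gria1. A level high on a single array therefore enlarges its own error, and the fit cannot test such a pattern.

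Grin2d, encoding the NMDA subunit GluN2D, read 145 (sham+PSL ZT10), 89.8 (sham+PSL ZT22), 129.7 (ADX+PSL ZT10) and 124 (ADX+PSL ZT22). The sham+PSL ZT22 array was the low one. The log2 ratio of ZT10 over ZT22 was 0.69 ± 0.22 in sham+PSL against 0.06 in ADX+PSL. The ratio in sham+PSL was 0.37 after normexp background correction and 0.42 on the mean signal without background correction. With Grin2c and Grin2d higher (background 5.18%) and Gria1 lower (background 5.68%), 3 of the 28 genes passed a ratio of 1.5 in sham+PSL. None passed it in ADX+PSL over time (backgrounds 5.01% and 3.99%) or between operations at ZT10 (6.07% and 5.67%), and Gria1 alone was lower in ADX+PSL at ZT22 (5.74%, and 4.6% of genes higher).

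**Figure D2:**
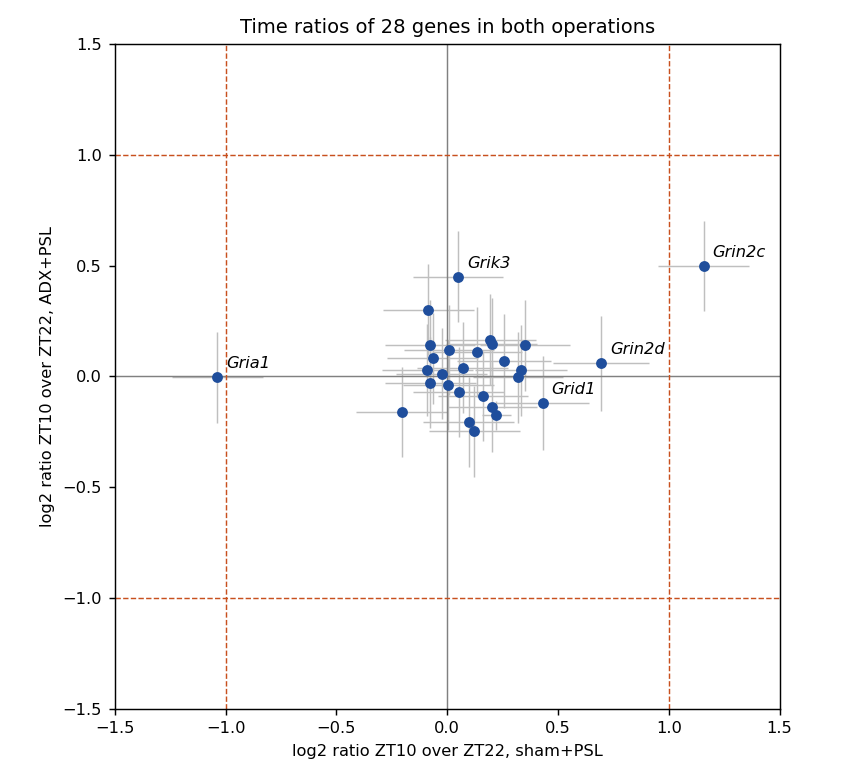
Log2 ratio of ZT10 over ZT22 in sham+PSL (horizontal) and in ADX+PSL (vertical) for the 28 genes above background on all arrays, 1 point per gene. Grey bars are spot errors and dashed lines mark a ratio of 2 in either direction. Gria1 at -1.04 and Grin2c at 1.16 lie beyond the dashed lines on the horizontal axis alone, and no gene does on the vertical axis.

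The time ratios of the operations come from separate arrays. Over the 28 genes they had a Pearson r of 0.28 and a Spearman rho of 0.04. Without Gria1 and Grin2c, the 2 genes farthest out in sham+PSL, r was -0.07 and rho -0.10 over 26 genes. Over 19061 genes r was 0.08 and rho 0.06. These are correlations across genes read on the same 4 arrays, and genes are not independent replicates. The SD of the log2 ratios over the 28 genes was 0.35 in sham+PSL and 0.18 for ADX+PSL, compared with 0.35 and 0.30 over the 19061 genes that were likewise detected on every array.

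The other NMDA receptor subunits varied less. Grin1 encodes GluN1, the subunit that every NMDA receptor needs, and read 3098, 2483, 2892 and 2901 on the sham+PSL ZT10, sham+PSL ZT22, ADX+PSL ZT10 and ADX+PSL ZT22 arrays. Its sham+PSL ZT22 array was again the lowest, with a time log2 ratio of 0.32 in sham+PSL against -0.004 in ADX+PSL, while a second and dimmer probe gave 0.51 and 0.47. Grin2a and Grin2b, which encode the subunits GluN2A and GluN2B, showed factors of 1.06 and 1.09 between their highest and lowest arrays. The levels of Grin2a in the same order of arrays were 335, 350.2, 355 and 335. The glycine-binding subunits GluN3A and GluN3B were read as 1448, 1380.3, 1481 and 1442 for Grin3a and as 1720.4, 1349, 1652 and 1499 for Grin3b. Over the 7 NMDA subunits, each by its brightest probe, the median log2 time ratio was 0.32 in sham+PSL against 0.06 in ADX+PSL (all genes 0.005 and 0.008). By their brightest probes 5 of the 7 were lowest on the sham+PSL ZT22 array, against 27.6% of all genes. The second probes of Grin1 and Grin3a were instead lowest on the ADX+PSL ZT22 array, at 62.9 and 221.

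Among the other AMPA receptor genes, Gria2 encodes GluA2, the subunit that keeps calcium out of the channel. It read 282, 264, 328 and 378 on the 4 arrays in the order given above. Both ADX+PSL arrays were above both sham+PSL arrays, with an operation log2 ratio of 0.21 at ZT10 and 0.52 ± 0.21 at ZT22. Its second probe read 129, 119, 153 and 122, and there the groups overlapped, with ratios of 0.25 and 0.04. Gria3 lay between 1147 and 1290.6. Gria4, the least variable AMPA gene, had levels of 5065, 5039, 5287 and 4869.9, a factor of 1.09.

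The kainate receptor subunits held the largest operation ratio at ZT10. Grik1, which encodes the pore-forming subunit GluK1, read 315, 334, 434 and 352, with a log2 ratio of ADX+PSL over sham+PSL of 0.46 ± 0.21 at ZT10 and 0.08 at ZT22. A second, dim probe read 34.6, 44.5, 55.9 and 63.5 and was also higher on both ADX+PSL arrays, with ratios of 0.69 and 0.51. Grik2, encoding GluK2, read 141, 118, 149 and 142, whereas its second probe read 55.4, 87.4, 96.2 and 87.6. The former was lowest on the sham+PSL ZT22 array and the latter on the sham+PSL ZT10 array, and their time ratios in sham+PSL were 0.26 and -0.66. Grik3, encoding GluK3, read 1168, 1129.9, 1290.4 and 945, with 0.45 ± 0.20 for ZT10 over ZT22 in ADX+PSL. Grik4 and Grik5 encode the high-affinity subunits GluK4 and GluK5, which need a GluK1 to GluK3 partner, and had factors of 1.11 and 1.19. The levels of Grik4, the least variable of the class, were 3491, 3180.0, 3406 and 3155. Grid1, whose product GluD1 is a delta receptor that organises synapses rather than acting as a classical glutamate-gated channel, read 163, 121, 126 and 137, with 0.43 ± 0.21 for time in sham+PSL and -0.37 for operation at ZT10.

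On their brightest probes, the metabotropic receptors had log2 ratios between -0.20 and 0.33. Grm5 encodes mGluR5, the group I receptor coupled to calcium release, and read 4007, 3500.4, 4394 and 3915. Its ratios of ADX+PSL over sham+PSL were 0.13 and 0.16 on the log2 scale, within the spot error, while its 2 dimmer probes gave 0.06 and 0.12 at ZT10 and 0.41 ± 0.21 and 0.45 ± 0.21 at ZT22. Both group II genes were nearly constant, since Grm3, encoding mGluR3, read 579.9, 578, 603 and 619. In group III, Grm7 encodes mGluR7, a low-affinity receptor of terminals, and read 1667, 1759, 1729 and 1567. Grm8 rested at 366, 422, 414 and 463, with both ZT10 arrays under both ZT22 arrays, and Grm4 at 287, 228, 266 and 261. A second Grm4 probe read 66, 80.2, 55.4 and 42.5, so that the operation log2 ratio at ZT22 was 0.20 ± 0.21 on the first probe and -0.92 on the second. Grm6, known as the receptor of retinal ON bipolar cells, did not rise well above background anywhere, and no ratio is given.

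The vesicular transporters divided by detection. Slc17a6 (VGLUT2) read 5637, 4897, 5537 and 6088, all of them well above background. Its log2 ratio was 0.20 for time in sham+PSL, -0.14 for time in ADX+PSL, -0.03 for operation at ZT10 and 0.31 ± 0.20 for operation at ZT22. Slc17a7 (VGLUT1) stayed near background, not well above it on any of the 4. Slc17a8 (VGLUT3) read 804, 776, 943 and 991 on its brightest probe, both ADX+PSL arrays being higher, with log2 ratios of 0.23 ± 0.20 at ZT10 and 0.35 ± 0.20 at ZT22. Its other probe was well above background on the ADX+PSL ZT22 array alone, with 66.7 against 5.83, 5.38 and 5.91. With the dimmest detected signal of the other array in place of an undetected value, that is at least 5.20-fold above the ADX+PSL ZT10 array and at least 3.63-fold above the sham+PSL ZT22 array. The brightest probe did not show this, with a time log2 ratio in ADX+PSL of -0.07.

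Scaffold and uptake genes completed the set. Dlg4 encodes PSD-95, which anchors NMDA receptors in the postsynaptic density, and read 3363, 2926, 3245 and 2929. Homer1 encodes a scaffold that ties group I receptors to calcium stores, and its short variant is known as activity-induced. The brightest probe read 671, 683, 746 and 739, and which variant each probe reads was not established here. The 5 Homer1 probes differed by at most 0.14 in their log2 time ratio in sham+PSL, and their operation ratios at ZT22 ran from -0.37 to 0.11. Slc1a1 encodes EAAT3, the neuronal glutamate uptake transporter, and its probe was printed 10 times. It read 3541, 3035, 3139 and 3547, and the spot SD on each array lay between 0.039 and 0.048 on the log2 scale. All 4 of its log2 ratios (0.22 and -0.18 for time in sham+PSL and ADX+PSL, -0.17 and 0.22 for operation at ZT10 and ZT22) exceeded 2 spot errors, the error being 0.065 for the first. Repeat spots lower the measurement error, not the spread between mice.

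Beyond 2 spot errors lay 5 of the 28 genes for time in sham+PSL (Gria1, Grin2c, Grin2d, Grid1 and Slc1a1) and 3 in ADX+PSL (Grin2c, Grik3 and Slc1a1). For operation it was 2 at ZT10 (Grik1 and Slc1a1) and 5 at ZT22 (Gria1, Gria2, Grin2c, Grin2d and Slc1a1). Over the 19061 genes detected on every array the shares were 11.1% and 8.57% for time in sham+PSL and ADX+PSL, and 11.5% and 11.6% for operation at ZT10 and ZT22.

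**Figure D3:**
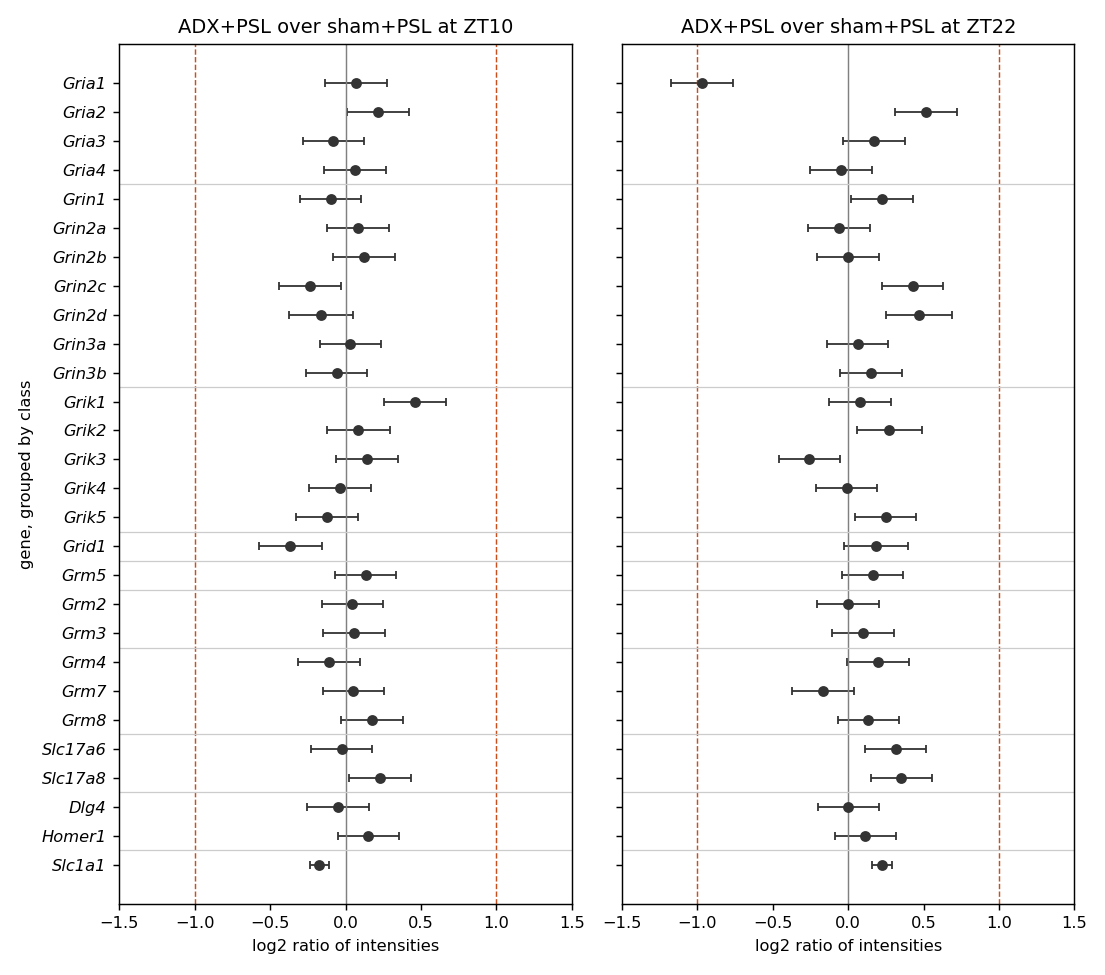
Log2 ratio of ADX+PSL over sham+PSL at ZT10 (left) and ZT22 (right) for the 28 genes above background on all arrays, 1 point per gene with its spot error as the bar. Dashed lines mark a ratio of 2 in either direction and grey lines separate the classes. At ZT10 the points lie between -0.37 and 0.46, and at ZT22 Gria1 stands apart at -0.97 while the others lie between -0.26 and 0.52.

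The operation comparison sets ADX+PSL beside sham+PSL. Loss of the adrenals, the saline given to ADX mice and the tissue differences between the arrays cannot be told apart in it. At ZT10 the median log2 ratio over the 28 genes was 0.05 (all genes 0.008), and 26 of them lay within 0.25 of 0, against 73.6% of the genes detected on every array. That median turned to -0.035 without normalization between arrays and to -0.031 with the probes of a gene averaged. At ZT22 the median was 0.14 (all genes 0.009), and 20 of them did, against 70.5%. By their brightest probes, 0 of the 28 genes had both ADX+PSL levels under both sham+PSL levels, against 15.8% of all genes. Both lay above in 7 of 28 (Gria2, Grin2b, Grik1, Grik2, Grm3, Slc17a8 and Homer1), against 19.4% of all genes. Further probes did not all share this, since the second probe of Grin2b and the other 4 probes of Homer1 had operation ratios under 0 at ZT22. The second probes of Grin3a and Grm4 and some further Homer1 probes, detected on all 4 arrays, were lower on both ADX+PSL arrays. The count of 0 therefore holds for the brightest probes alone. Counting the sets of 2 arrays by time instead, 10 of 28 were higher on both ZT10 arrays, against 17.9% of all genes. They were Gria4, Grin2c, Grin2d, Grin3a, Grin3b, Grik3, Grik4, Grm5, Grm4 and Dlg4. Lower on both were 3 (Gria1, Grm2 and Grm8), against 15.4%. On the further probes of Gria4, Grin3a, Grm4 and Grm5 the ZT10 and ZT22 levels overlapped. In the additive limma fit, 0 of the 28 had an adjusted p-value under 0.05 for operation or for time point, as was so for 0 of all 28845 probes. At an unadjusted p-value under 0.05 the fit held 0 of the 28 for operation (all probes 6.25%) and 1 for time point (Grin2c, all probes 4.92%). The smallest adjusted p-value was 0.81 for operation and 0.93 for time point.

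Many of these genes were lowest on the same array. On the sham+PSL ZT22 array lay the lowest level of 16 of the 28 genes by their brightest probes, against 27.6% of all genes. Further probes often differed. The second probes of Gria3 and Grm4 were highest on that array, and those of Grin1, Grin3a and Grik2 were lowest on another. The second probe of Gria2 was also lowest there, and the dimmer probes of Grm5 were split. The lowest level fell on the sham+PSL ZT10 array for 7 (25.6% of all genes), on the ADX+PSL ZT22 array for 4 (25.6%) and on the ADX+PSL ZT10 array for 1 (21.3%). The highest level fell on the sham+PSL ZT22 array for 3 genes (24.6%), on the sham+PSL ZT10 array for 8 (24.5%), on the ADX+PSL ZT10 array for 9 (25.8%) and on the ADX+PSL ZT22 array for 8 (25.1%). Both comparisons that contain the sham+PSL ZT22 array had the larger medians, 0.11 for time in sham+PSL (all genes 0.005) and 0.14 for operation at ZT22, against 0.03 for time in ADX+PSL and 0.05 for operation at ZT10. The inhibitory neuron markers Slc32a1, Gad1, Gad2 and Slc6a5 were also lowest there, 4 of 4, with a median log2 time ratio of 0.26 in sham+PSL and summed levels of 69887, 56477, 62780 and 61034. Of the 11 general neuronal markers 3 were, and of the 5 red blood cell genes all 5. Microglial genes went the other way, with a median time ratio of -0.39 in sham+PSL. The part of these tissue differences in the lower levels on this array was not tested.

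Where several probes read 1 gene, their agreement gives a second measure of error. In 12 genes at least 2 probes were well above background on all arrays. The spread between the probes of a gene had a median of 0.27 on the log2 scale for time in sham+PSL, 0.31 for time in ADX+PSL, 0.15 for operation at ZT10 and 0.28 for operation at ZT22. The widest were 0.91 (Grik2, time in sham+PSL) and 1.11 (Grm4, operation at ZT22). All probes of a gene had the same sign in 6 of the 12 genes for time in either operation, in 7 for operation at ZT10 and in 5 at ZT22. For time in sham+PSL and for operation at ZT22, 20 of the 28 genes had ratios within 0.25, less than these median spreads. Of the 30 genes 16, Gria1, Grin2c and Grin2d among them, have no second probe.

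**Figure D4:**
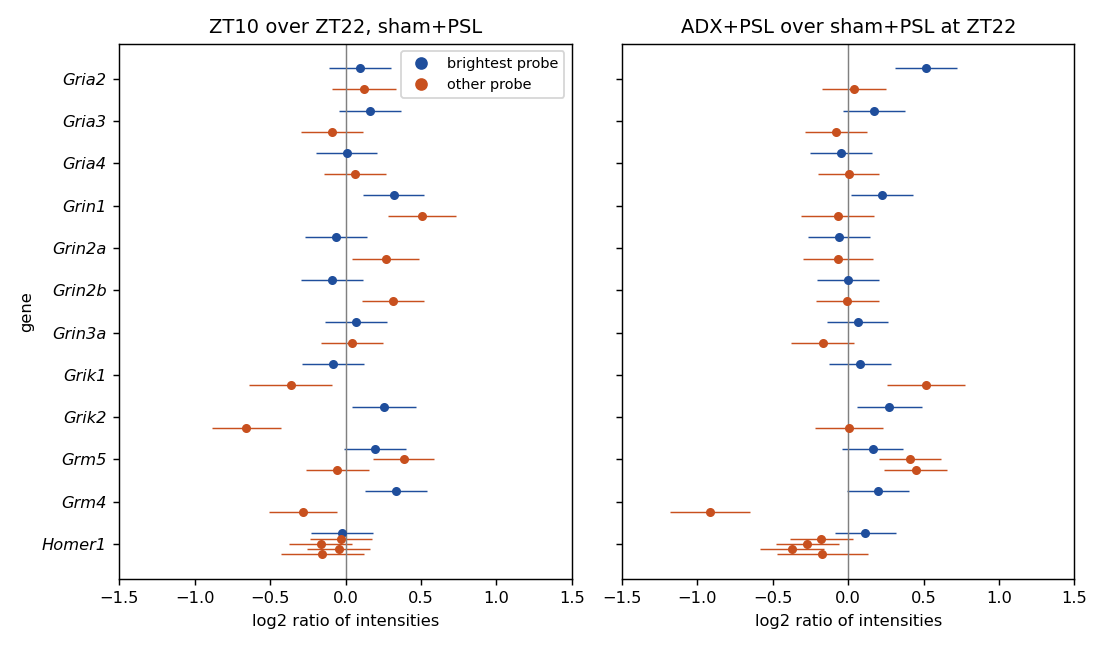
Log2 ratios from each probe of the 12 genes with at least 2 probes above background on all arrays, for ZT10 over ZT22 in sham+PSL (left) and for ADX+PSL over sham+PSL at ZT22 (right), 1 point per probe with its spot error as the bar. Blue points are the brightest probe of a gene and orange points its others. The probes of Grik2 (left) and of Grm4 (right) lie farthest apart, by 0.91 and 1.11.

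Other genes of glutamate signalling had ratios of similar size. Of 49 listed genes, 47 were on the array by name and all 47 were measured. None passed the limits of the methods in any comparison. In the 12 auxiliary subunits of AMPA and kainate receptors the median log2 time ratio was 0.11 in sham+PSL against -0.05 in ADX+PSL. The largest ratio there was that of Cacng8, a TARP subunit that accompanies AMPA receptors, with levels of 48.9, 40.1, 53.8 and 36.9 and a time ratio of 0.55 in ADX+PSL. Next came Cnih2, a cornichon protein that also joins AMPA receptors, with a time ratio of 0.32 in sham+PSL. Among 19 genes of the postsynaptic density it was that of Shank3, a scaffold protein, with 672, 562, 740.4 and 841 and an operation ratio of 0.58 at ZT22, followed by Grip2, which binds AMPA receptor tails, with 251, 188, 241 and 242. The 11 genes of uptake and of the glutamine cycle included Slc38a5, a glutamine transporter, with 1350.0, 1996, 974 and 1672, low on both ZT10 arrays. Its time ratios were -0.56 in sham+PSL against -0.78 in ADX+PSL. Slc38a2, another glutamine transporter, read 10157, 6890.4, 10178 and 9512, the sham+PSL ZT22 array being low. The astrocytic uptake carriers Slc1a2 (GLT-1) and Slc1a3 (GLAST) had operation log2 ratios between -0.17 and 0.21. Of 5 enzymes that make or degrade NMDA receptor co-agonists, Dao, which degrades D-serine, read 1015, 679.5, 1428 and 720.4. Both ZT10 arrays were above both ZT22 arrays. The time ratio on the log2 scale was 0.58 in sham+PSL against 0.99 ± 0.20 in ADX+PSL, while Shmt1, the next of the 5, did not exceed 0.19. At a ratio of 1.5, Dao (higher) and Slc38a5 (lower), both for time in ADX+PSL, were the only ones of the 47 past it in any comparison. The median over the 47 genes was 0.14 for time in sham+PSL, 0.05 for time in ADX+PSL, -0.01 for operation at ZT10 and 0.07 for operation at ZT22.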

How the data were processed

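The arrays were 1-colour Agilent whole mouse genome arrays of 60-base probes, 1 for each of 4 conditions. The authors extracted spot signals with Feature Extraction (9.5.1.1 per the labels, 10.7.1.1 per the file headers), log2-transformed and quantile-normalized them, and deposited the resulting intensities as linear values, 1 for each probe. The deposited scanner files gave the flag for spots well above background and the spot error. Log2 ratios were taken from the table in Python 3.11.15 (numpy 2.4.6, pandas 2.3.3), and figures were drawn with matplotlib 3.10.9. A probe was used if at least 50% of its spots were well above background. For the Z-score, log2 ratios were centred and scaled by their mean and SD over all probes. Operation and time point were fitted as additive terms in limma 3.58.1 (R 4.3.3), with 1 residual degree of freedom, to probes detected on 1 array or more. The difference between the time ratios of the operations is the error of this fit, which cannot test that difference. P-values were adjusted by the Benjamini-Hochberg method. The fit was also run on simulated levels in which some probes were raised on both ADX+PSL arrays. That run did not include a difference set on a single array, so it does not cover such patterns. All 30 genes were named, with values on every array for those past a ratio of 1.5 and the least variable of each class. Genes of the other lists were named where they passed a limit or had the largest ratios of their list. The genes, lists and settings were chosen with earlier results of these data known. Slc1a2 and Slc1a3 were added after their values were seen. Alternatives covered normalization, background correction, probe choice, filter and limits. The number of arrays limits the precision.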

Additional observations from a re-analysis of the deposited data

Results flagged for a closer look

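The second Slc17a8 probe was well above background on the ADX+PSL ZT22 array alone, outside the brightest-probe measurement used for the comparisons. Its level there was at least 5.20-fold above the ADX+PSL ZT10 array and at least 3.63-fold above the sham+PSL ZT22 array. It rests on 1 spot, and the brightest probe of the gene had log2 ratios of -0.07 and 0.35 in these comparisons.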

How the results depend on the processing

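Of 108 recomputed counts and medians, 92 stayed close to the reported value and 16 moved. For genes past the limits at ZT10 over ZT22 in sham+PSL, reported as 0, the count was 1 (Grin2c) with normexp background correction or with the mean signal without background correction, 2 (Gria1 and Grin2c) with Z-scores within 20 intensity bins or a ratio of 2 alone, and 3 at a ratio of 1.5. Averaging a gene's probes gave 1 (Slc17a8) for time in ADX+PSL and 1 (Slc17a8) for operation at ZT22, where a ratio of 1.5 also gave 1 (Gria1). Without normalization between arrays the medians were 0.19 and -0.083 for time in sham+PSL and ADX+PSL, and -0.035 and 0.25 for operation at ZT10 and ZT22, beside medians over all genes of 0.07, -0.09, -0.05 and 0.12, so that the medians for time in ADX+PSL and for operation at ZT10 changed sign. Averaging probes gave operation medians of -0.031 at ZT10, again of the other sign, and 0.089 at ZT22. Lower on both ADX+PSL arrays, reported as 0, were 1 (Grm7) without normalization and 3 (Grin3a, Grik3 and Grm4) with probes averaged. The second probes of Grin3a and Grm4 were detected on every array and were themselves lower on both ADX+PSL arrays. The averages also took in probes that were not detected on every array. The second probe of Slc17a8 was detected on the ADX+PSL ZT22 array alone, and that of Grik3 on the sham+PSL ZT10 array alone. The causes were not tested. No fit called any of the 28 genes for either factor. No paired analysis was possible because the conditions share only 1 replicate number, beyond the additive fit itself, which compares operations within time points and time points within operations. Leaving an array out would leave the additive fit without residual degrees of freedom, and was not run.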
